A study of Mus musculus with 12 samples.

Results

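Collagen genes were followed in RNA of mouse skeletal muscle. The members were the genes whose symbol, in both deposited count tables, is Col, 1 or 2 digits, the letter a and a digit. They numbered 44 of the 21976 genes present in both tables: 11 fibrillar chains, 8 basement membrane chains and 25 others. The 12 libraries came from C57BL/6N mice in 4 groups of 3. Chow mice received regular chow and HFD mice a high-fat diet, for 18 weeks from 6 weeks of age, with no injection. The Vehicle and PCN groups were likewise fed the high-fat diet. Vehicle mice were then injected into the peritoneal cavity with corn oil holding 30% DMSO, and PCN mice with PCN at 50 mg/kg, once a day for 4 days. In rodent work PCN usually stands for pregnenolone carbonitrile, a synthetic ligand of the nuclear receptor PXR. Libraries are named below by group and the number in their label. The labels name neither the muscle nor whether each library was a separate mouse, so the p-values measure the spread between these samples.

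Collagens are trimers of α chains wound into a triple helix. Fibrillar collagens (types I, III and V here) are secreted as procollagens, trimmed and cross-linked into the fibres of the connective tissue around muscle fibres and bundles, and are made mainly by fibroblasts. Type IV chains form the sheet-like network of the basement membrane that wraps each muscle fibre and capillary. Type VI collagen forms beaded filaments that connect that membrane with the surrounding matrix, and its loss causes muscle disease in people and mice.

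Libraries held 12770308 to 19739226 counts, of which collagen genes took 0.0394% (PCN 27) to 0.185% (HFD 38). Levels are CPM, counts scaled by TMM to a common library size over all 12 libraries. Fold changes come from edgeR's quasi-likelihood test of 2 groups, with Benjamini-Hochberg adjustment over every gene tested and a threshold of 0.05. Of 8 muscle fibre markers, 7 were in both count tables. Those were present in every library, with Acta1 (skeletal actin) at 9567 to 17643 CPM. Others of the 7 varied more within groups. Mb was at 617 CPM in Vehicle 15 and 3805 in Vehicle 55, and Myh1 at 2111 in PCN 11 and 10869 in PCN 5. In the table of HFD and Chow, 5 slow-fibre markers summed to 483 and 542 CPM in Chow 17 and Chow 19 but to 10.7 in Chow 8 and 3.94 to 8.45 in HFD, so the Chow libraries differed among themselves in slow-fibre RNA. None of the 6 slow-fibre genes listed was found in both tables, so they could not be compared across all 4 groups. HFD and Vehicle are in different tables, and what separates those groups, the injections included, cannot be told apart from what separates the tables.

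Per kilobase of exon, the chains with the highest mean level over the 12 libraries were Col4a1 (20.5 CPM per kb) and Col4a2 (15.7), which together make the main type IV trimer. Col3a1 (type III, 13.0 CPM per kb), Col6a1 (9.15), Col1a1 (5.80) and Col1a2 (5.75) followed. The remaining type IV chains were far lower, from 0.612 CPM per kb for Col4a5 to 0.0885 for Col4a6. In group means per kb, Col3a1 stood above both type I chains in all 4 groups, but Col6a1 (7.80 and 5.73) exceeded Col3a1 (7.70 and 4.89) in Vehicle and PCN. The length used is the union of all annotated exons, 4.38 kb for Col6a1, 9.82 for Col3a1 and 12.4 for Col1a2. It can exceed the length of the main transcript, so the order per kb depends on this choice. In CPM, Col3a1 was above Col6a1 in Vehicle (75.6 against 34.2) and PCN (48.0 against 25.1). The 16 members with a mean of at least 10 CPM were Col1a1, Col1a2, Col3a1, Col5a1, Col5a2 and Col5a3 of the fibrillar class, Col4a1, Col4a2, Col15a1 and Col18a1 of the basement membrane, and Col6a1, Col6a2, Col6a3, Col6a6, Col12a1 and Col22a1 of the others. At the other end were the cartilage chains Col2a1 (12 counts over the 12 libraries) and Col10a1 (3 counts), the type VI chain Col6a4 (8 counts), and Col9a2 (14 counts). The low expression filter kept 33 members for HFD vs Chow, 34 for each other pair of groups and 35 for all 4 groups. The 9 members left out of all fits were Col2a1, Col6a4, Col9a1, Col9a2, Col9a3, Col10a1, Col17a1, Col25a1 and Col26a1, with Col9a1 the highest at a mean of 0.322 CPM. Col4a6 and Col6a5 were tested in some comparisons only.

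**Figure D1:**
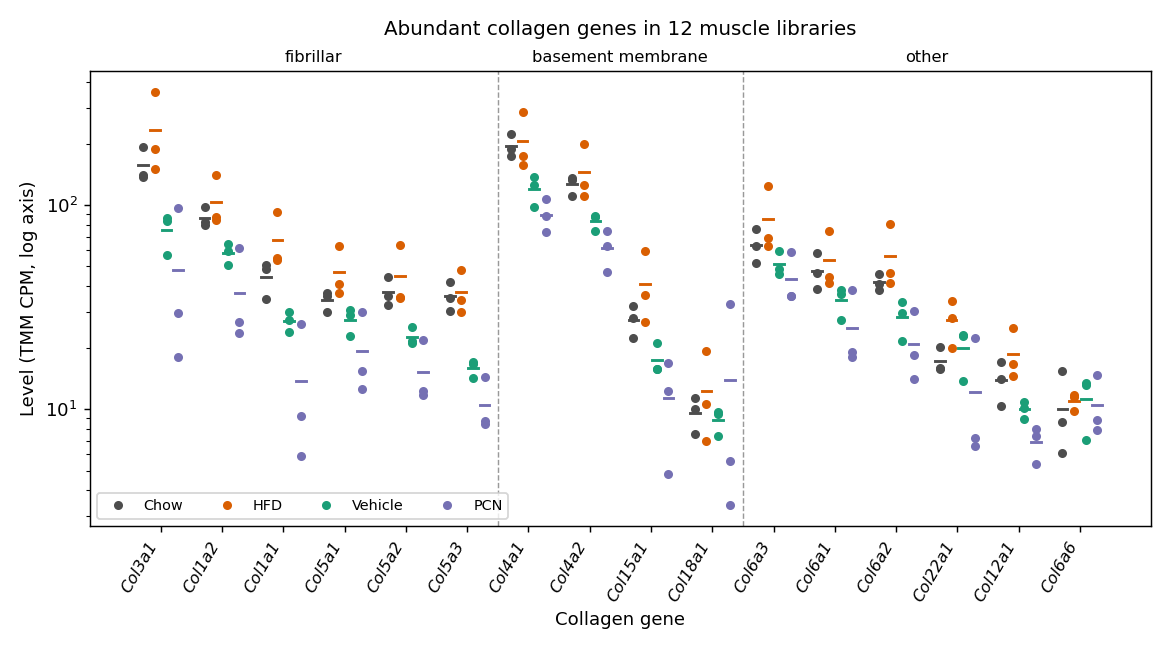
Levels (TMM CPM, log axis) of the 16 collagen genes with a mean of at least 10 CPM. Each point is 1 library, bars are group means of 3 libraries, and dashed lines separate the classes. HFD 38 gave the highest point for 14 of the 16 genes, and PCN 27 or PCN 5 the lowest for 15.

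The mean summed level of each class was highest in HFD and lowest in PCN. Fibrillar chains summed to 404 ± 61.4 CPM in Chow, 545 ± 203 in HFD, 237 ± 30.2 in Vehicle and 151 ± 93.0 in PCN (mean ± SD, n = 3 each). Basement membrane chains summed to 374 ± 44.7, 417 ± 137, 243 ± 24.6 and 186 ± 43.4 CPM in the same order. The other collagens summed to 228 ± 31.5, 288 ± 95.4, 187 ± 18.8 and 148 ± 34.7 CPM. The spread in HFD came from HFD 38, whose fibrillar sum was 778 CPM against 409 and 449 in HFD 4 and HFD 30. For basement membrane chains HFD 38 was at 575 CPM, while HFD 4 and HFD 30 (322 and 356) lay below the Chow mean. The rank of HFD above Chow in that class thus rested on HFD 38. For the other collagens HFD 38 was at 397 CPM, and HFD 4 and HFD 30 (223 and 243) lay on either side of the Chow mean. The spread in PCN lay between PCN 11 (258 CPM) and the pair PCN 5 and PCN 27 (105 and 90.5 CPM). Every Chow and HFD library lay above every Vehicle and PCN library in the sum of each class. The margin was small for the other collagens, with Chow 19 at 201 CPM and Vehicle 23 at 197. In bulk RNA, fewer matrix-producing cells and less collagen RNA per cell cannot be told apart.

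**Figure D2:**
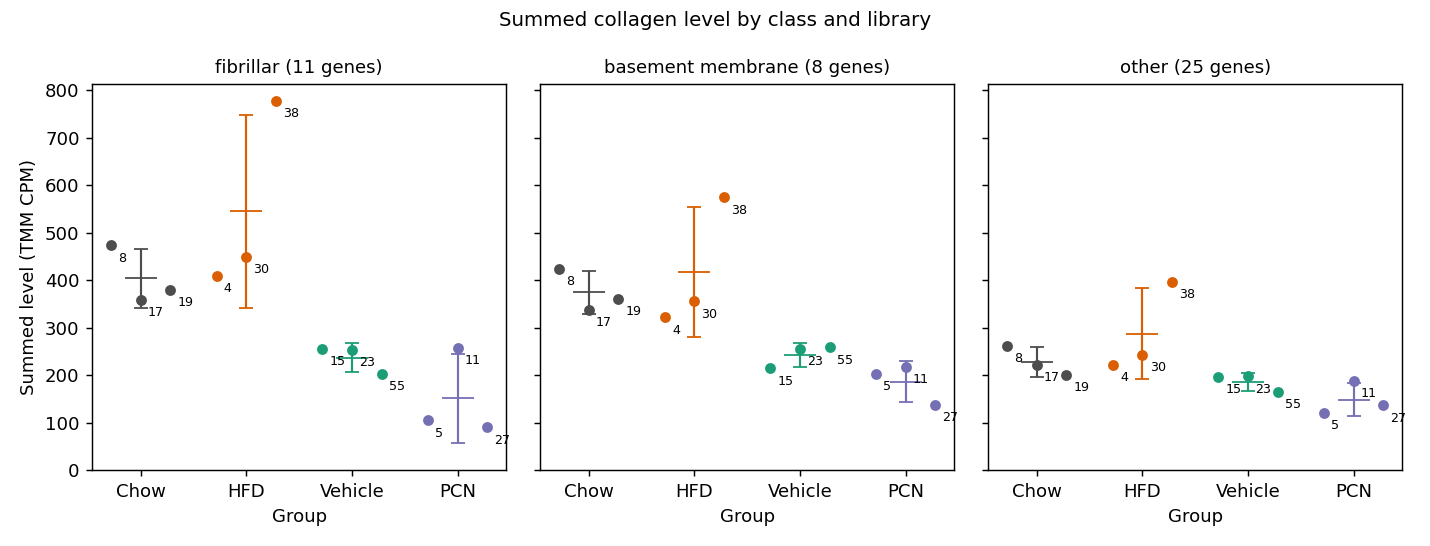
Summed level (TMM CPM) of the fibrillar, basement membrane and other collagens in each library. Points are libraries with their label numbers, horizontal bars are group means and error bars are the SD of 3 libraries. HFD 38 stands at the top of each class, and PCN 11 lies beside the Vehicle libraries for fibrillar chains.

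The make-up of the collagen signal differed less than its amount. Fibrillar chains made up 40.1% ± 0.917 of collagen CPM in Chow, 43.4% ± 0.927 in HFD, 35.5% ± 3.00 in Vehicle and 29.4% ± 8.23 in PCN (SD, n = 3). Fibrillar chains took the largest share of the 3 classes in every Chow and HFD library, and also in Vehicle 15 and PCN 11, but not in the remaining libraries. Their share was 24.4% in PCN 5 and 24.8% in PCN 27, but 38.9% in PCN 11, close to 38.3% in Vehicle 15. In PCN 5 the basement membrane share was 47.4%, with Col18a1 alone at 32.7 of the 429 collagen CPM.

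**Figure D3:**
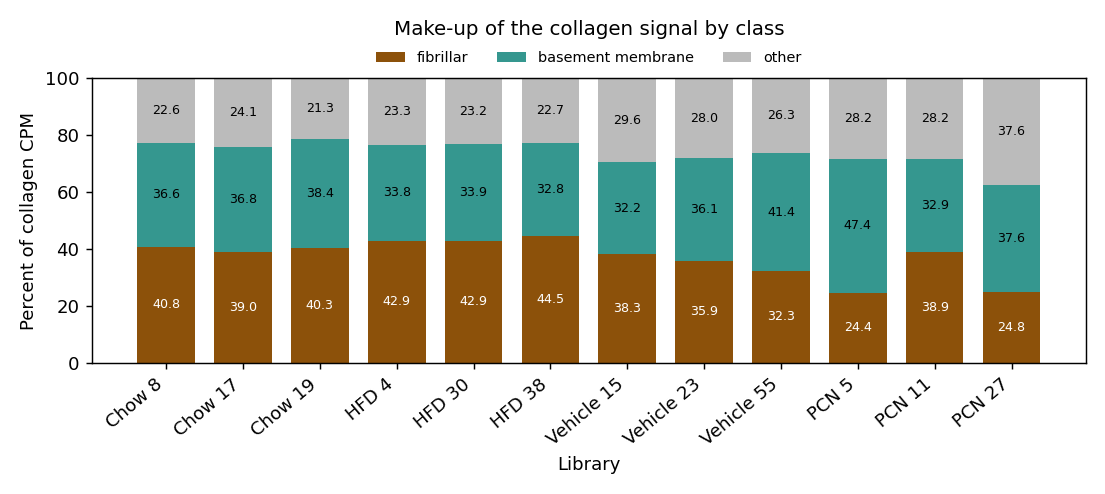
Percent of the collagen CPM in each library taken by the 3 classes, with the value written in each segment. The fibrillar segment runs from 24.4% in PCN 5 to 44.5% in HFD 38.

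HFD was compared with Chow, uninjected groups that differ in diet by their labels. Diet was not the only difference between these libraries. The 5 slow-fibre markers summed to between 10.7 and 542 CPM in Chow and between 3.94 and 8.45 in HFD. The part of fibre content in the collagen values was not tested. No collagen gene passed the threshold: 0 of 33 tested, beside 0 of 12686 genes (percent called 0), with 44 genes but 0 collagens called by DESeq2. At an unadjusted p under 0.05 there were 5 collagens, against 7.70% of all genes. All 5 were higher in HFD (3.78% of all genes) and 0 lower (3.92%). In 5 members every HFD library lay above every Chow library (5.81% of all genes), and in 0 below (6.92%). The median log2 fold change was 0.38 for the 10 fibrillar chains tested, 0.09 for 7 basement membrane chains and 0.22 for 16 others, against 0.0004 for all genes. Fitted values lay below 0 for 6 of the 33 members, against 49.9% of all genes. Without HFD 38 that count was 14 of 34 and the fibrillar median 0.06. With no expression filter 4 members passed, Col24a1, Col22a1, Col1a1 and Col15a1, with 237 genes in all.

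Col24a1, a minor fibrillar chain, had the lowest p of the members. In Chow 8, 17 and 19 it stood at 4.94, 4.05 and 3.48 CPM, and in HFD 4, 30 and 38 at 10.6, 7.77 and 5.65 CPM. The groups did not overlap, and the log2 fold change was 0.96 ± 0.25 (SE; edgeR adjusted p = 0.522). Unlike most members, its highest HFD library was HFD 4, not HFD 38. Col22a1, a chain found at muscle-tendon junctions, stood at 20.2, 15.9 and 15.8 CPM with chow and 19.9, 27.9 and 33.9 CPM with HFD, a log2 fold change of 0.68 ± 0.20 (edgeR adjusted p = 0.555). Chow 8 overlapped HFD 4 there. Col11a1, a minor fibrillar chain that can join type V trimers, had 1.22, 1.16 and 1.18 CPM in Chow but 2.15, 1.41 and 2.77 CPM in HFD. Its log2 fold change was 0.86 ± 0.34 (edgeR adjusted p = 0.635), again without overlap at this low level.

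Among abundant chains, Col1a1 had 50.7, 34.8 and 48.3 CPM in Chow 8, 17 and 19 but 53.5, 54.9 and 92.7 CPM in HFD 4, 30 and 38, with a log2 fold change of 0.61 ± 0.25 (edgeR adjusted p = 0.637). Each HFD library lay above each Chow library, 2 of them by a small margin. Its partner in type I trimers, Col1a2, overlapped between the groups and had a log2 fold change of 0.28 ± 0.21 (edgeR adjusted p = 0.752). Col5a1, a type V chain that sets fibril diameter, was 0.48 ± 0.21 (edgeR adjusted p = 0.644). The type IV pair had log2 fold changes of 0.09 ± 0.23 (Col4a1) and 0.21 ± 0.22 (Col4a2), with adjusted p of 0.934 and 0.824 by edgeR. Without HFD 38 both were below 0, as were Col1a2, Col5a2, Col5a3, Col18a1 and Col6a1. The 4 tested type VI chains were fitted above 0, with a median of 0.32.

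Vehicle was then compared with HFD, groups that share the diet and differ by the injections of vehicle and by deposited table. Col5a3 and Col1a1 fell, 2 of 34 members tested, against 193 of 12746 genes (percent called 1.51, with 0.989 lower and 0.526 higher). At an unadjusted p under 0.05 there were 16 members against 17.8% of all genes, 15 of them lower and 1 higher (9.17% and 8.66%). In 14 members every Vehicle library lay below every HFD library, which held for 11.1% of all genes, and in 1 above (12.2%). Fitted values lay below 0 for 25 of 34 members, against 50.1% of all genes. The median log2 fold change was -0.92 for 10 fibrillar chains, -0.49 for 7 basement membrane chains and -0.27 for 17 others, against -0.0014 for all genes. Over all members tested the median was -0.55, but -0.27 without HFD 38 (all genes 0.02) and -0.74 without HFD 4. With scaling by total counts it was -0.40, where that of all genes was 0.16.

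Col5a3 encodes the third chain of type V collagen and lies on chromosome 9 at 20770050 to 20815067 (GRCm38), on the minus strand. It was at 30.0, 34.2 and 47.8 CPM in HFD 4, 30 and 38, and at 14.2, 16.6 and 17.0 CPM in Vehicle 15, 23 and 55. The lowest HFD library was well above the highest Vehicle library. The log2 fold change was -1.23 ± 0.18, or 2.35-fold lower (edgeR adjusted p = 0.0217). Col1a1, the major chain of type I collagen (chromosome 11, 94936224 to 94953042), was at 29.8, 27.2 and 23.8 CPM in Vehicle, below each HFD value given above. Its log2 fold change was -1.32 ± 0.22, or 2.50-fold lower (edgeR adjusted p = 0.0344). Both calls were lost without HFD 30, Vehicle 15 or Vehicle 23 (adjusted p 0.0843 to 0.154 for Col5a3 and 0.0863 to 0.203 for Col1a1), and that of Col1a1 also without HFD 4 (0.077). They were lost too with all 12 libraries in 1 fit (0.116 and 0.267) and with scaling by total counts (0.0624 and 0.0784). DESeq2 called 12 of these 34 members, each lower. Over all genes it called 587 of the 21595 it was given, 362 of them lower.

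Other fibrillar chains did not pass. Col3a1 was at 83.9, 86.2 and 56.6 CPM in Vehicle against 150, 188 and 358 CPM in HFD, a log2 fold change of -1.63 ± 0.35 (edgeR adjusted p = 0.0764). The groups did not overlap, with HFD 38 far above the other HFD libraries. Col1a2 was -0.84 ± 0.20 (edgeR adjusted p = 0.0759), Col5a2 -0.99 ± 0.23 (0.0779) and Col5a1 -0.79 ± 0.21 (0.095). Col11a1 had the lowest value of the members, at 0.871, 0.543 and 0.593 CPM in Vehicle, a log2 fold change of -1.67 ± 0.39 (edgeR adjusted p = 0.0642). Col27a1, a long fibrillar chain best known from cartilage, went the other way: 0.956, 0.989 and 1.39 CPM in HFD and 3.02, 1.96 and 2.27 CPM in Vehicle. Its log2 fold change was 1.09 ± 0.32 (edgeR adjusted p = 0.117).

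Of the basement membrane chains, Col4a1 was at 157, 174 and 286 CPM in HFD and 97.9, 125 and 137 CPM in Vehicle (log2 fold change -0.78 ± 0.24, edgeR adjusted p = 0.131). Col4a2 had nearly the same value, -0.80 ± 0.21 (edgeR adjusted p = 0.0925). Col15a1, which links basement membrane to nearby fibrils, was -1.23 ± 0.29 (edgeR adjusted p = 0.089). Col18a1, the source of endostatin, overlapped between the groups (-0.49 ± 0.34, edgeR adjusted p = 0.528). Among the other collagens, Col12a1, which decorates fibril surfaces, was at 16.6, 14.5 and 24.8 CPM in HFD and 10.9, 10.2 and 8.96 CPM in Vehicle (-0.91 ± 0.20, edgeR adjusted p = 0.0595). The type VI chains Col6a1, Col6a2 and Col6a3 were at -0.66 ± 0.24, -1.01 ± 0.28 and -0.74 ± 0.26 (edgeR adjusted p = 0.206, 0.121 and 0.19). Col6a6, which takes the place of the third chain in some trimers, was at 0.02 ± 0.23 (edgeR adjusted p = 0.976).

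**Figure D4:**
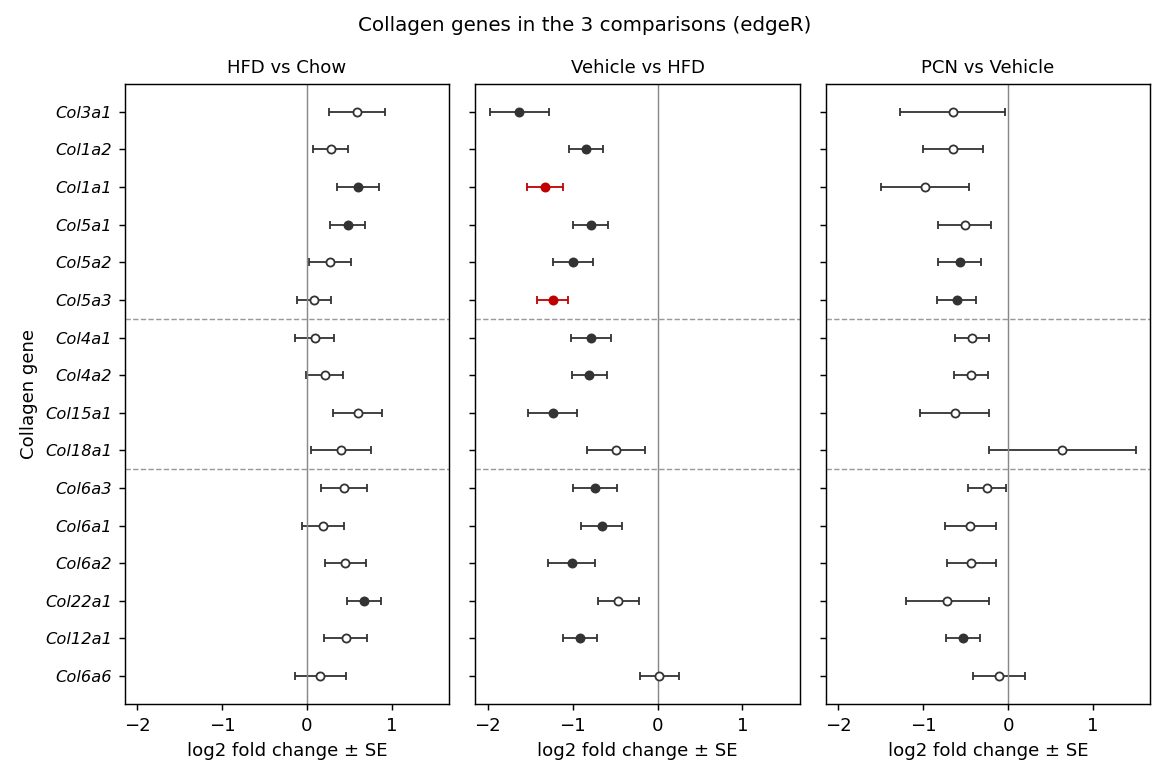
Log2 fold change ± SE (edgeR) of the 16 abundant collagen genes in the 3 comparisons. Open points have an unadjusted p of 0.05 or more, filled points lie under 0.05, and red points (Col5a3 and Col1a1, Vehicle vs HFD) have an adjusted p under 0.05. Dashed lines separate fibrillar, basement membrane and other chains.

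In Vehicle vs HFD, fold changes also ran with exon length over all genes. Spearman's rho across genes, which are not independent replicates, was -0.313. The median log2 fold change was 0.18 in the 20% of genes with the shortest exons and -0.15 in the 20% with the longest, which held 16 of the 34 collagens tested. In HFD vs Chow the corresponding rho was 0.257 and in PCN vs Vehicle -0.0837. The part of length in the collagen values was not tested.

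The sequence just upstream of the called gene Col5a3 is shown beside those of Col5a1, its partner chain with a smaller fitted value, and Col3a1, the most abundant fibrillar chain. Each is the 250 bases before the RefSeq gene start on GRCm38.p6, read 5′ to 3′ on the gene's strand: chr9:20815068-20815317 (minus), chr2:27886175-27886424 (plus) and chr1:45311288-45311537 (plus). Capitals mark the motifs CCAAT (the CCAAT box), GGGCGG (the GC box) and TATAAA (the TATA box) on either strand.
Col5a3: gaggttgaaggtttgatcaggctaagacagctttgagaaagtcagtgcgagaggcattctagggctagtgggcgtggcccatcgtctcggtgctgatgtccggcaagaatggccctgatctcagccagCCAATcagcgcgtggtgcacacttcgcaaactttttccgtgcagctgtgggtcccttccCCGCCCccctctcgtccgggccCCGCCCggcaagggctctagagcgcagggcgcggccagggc
Col5a1: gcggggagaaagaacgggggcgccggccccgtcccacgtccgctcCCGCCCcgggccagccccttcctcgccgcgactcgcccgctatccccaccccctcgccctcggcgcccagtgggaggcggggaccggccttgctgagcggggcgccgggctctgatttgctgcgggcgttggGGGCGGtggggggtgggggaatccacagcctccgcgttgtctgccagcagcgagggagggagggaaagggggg
Col3a1: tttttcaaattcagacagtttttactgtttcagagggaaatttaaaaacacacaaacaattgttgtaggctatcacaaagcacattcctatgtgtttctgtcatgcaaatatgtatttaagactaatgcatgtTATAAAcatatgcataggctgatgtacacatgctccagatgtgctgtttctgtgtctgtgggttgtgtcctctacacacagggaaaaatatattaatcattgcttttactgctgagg
The Col5a3 window holds 1 CCAAT and 2 GGGCGG matches, that of Col5a1 2 GGGCGG matches, and that of Col3a1 1 TATAAA match. Such letters are common: of 32851 RefSeq windows of this length, 33.8% hold CCAAT, 32.7% GGGCGG and 12.4% TATAAA. Among the 38 windows of the 35 collagen genes with an entry, the shares were 34.2%, 57.9% and 13.2%. A match describes the letters and is not a measured binding site.

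PCN was compared with Vehicle, groups that share diet and injections and differ in the agent. No collagen gene passed the threshold, 0 of 34 tested beside 0 of 12833 genes (percent called 0), and DESeq2 called none of either. At an unadjusted p under 0.05 there were 3 members against 2.82% of all genes, all lower (1.47% of all genes) and 0 higher (1.35%). Fitted values lay below 0 for 32 of the 34 members, against 47.7% of all genes, and without PCN 11 for 33 of 35. The median log2 fold change was -0.59 for 10 fibrillar chains, -0.44 for 8 basement membrane chains and -0.27 for 16 others, against 0.01 for all genes. Without PCN 11 the fibrillar median was -0.96, the basement membrane median -0.73, and 17 of 35 members had an unadjusted p under 0.05, against 7.59% of all genes in that fit, with 0 past the threshold. Other fits with a library left out were weaker. Without PCN 27 the median of all members was -0.30, against -0.44 with every library. In that fit 2 of 35 members lay under 0.05 (2.29% of all genes) and 5 were fitted above 0. Without Vehicle 23, 1 of 34 lay under 0.05 (1.90% of all genes).

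Col5a3 was at 8.49, 14.3 and 8.77 CPM in PCN 5, 11 and 27, against the Vehicle values of 14.2 to 17.0 CPM (log2 fold change -0.60 ± 0.23, edgeR adjusted p = 0.998). PCN 11 fell within the Vehicle range and the other PCN libraries below it. Col12a1 was at 5.36, 8.00 and 7.36 CPM in PCN, each below the lowest Vehicle library, with a log2 fold change of -0.53 ± 0.20 (edgeR adjusted p = 0.998). It was the member whose groups did not overlap, 1 of 34 lower against 4.06% of all genes, with 0 higher against 4.33%. Col5a2 was at 12.3, 21.9 and 11.7 CPM in PCN and 21.5, 25.4 and 21.0 CPM in Vehicle (-0.57 ± 0.25, edgeR adjusted p = 0.998).

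The type I and III chains were more uneven. Col1a1 was at 9.25, 26.0 and 5.91 CPM in PCN 5, 11 and 27, a log2 fold change of -0.98 ± 0.52 (edgeR adjusted p = 0.998) that became -1.84 ± 0.24 without PCN 11 (adjusted p = 0.125). Col3a1 was at 29.4, 96.5 and 18.0 CPM, so that PCN 11 exceeded each Vehicle library and the other 2 lay below them (-0.65 ± 0.62, edgeR adjusted p = 0.998). The type IV pair was steadier, with Col4a1 at 87.9, 107 and 73.9 CPM in PCN (-0.42 ± 0.20) and Col4a2 at 63.0, 74.6 and 46.7 CPM (-0.44 ± 0.20). Both had an edgeR adjusted p of 0.998. Col18a1 was at 32.7, 5.55 and 3.38 CPM in PCN 5, 11 and 27 against 7.38, 9.72 and 9.50 CPM in Vehicle. Its fitted value of 0.64 ± 0.86 (edgeR adjusted p = 0.998) turned to -1.01 without PCN 5. Col22a1 split otherwise, with 22.4 CPM in PCN 27 but 6.57 and 7.25 in PCN 5 and PCN 11 (-0.72 ± 0.49, edgeR adjusted p = 0.998).

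A comparison of Vehicle with Chow, added after the data were seen, differs by both diet and injections and again crosses the tables. Col5a3 had the lowest p of the members, with 41.7, 30.3 and 35.0 CPM in Chow 8, 17 and 19 and no overlap with Vehicle. Its log2 fold change was -1.17 ± 0.16 (edgeR adjusted p = 0.0507), so 0 of 34 members passed, beside 5 of 12739 genes (percent called 0.0392, with 0.0314 lower and 0.00785 higher). DESeq2 called 4 members, Col3a1, Col5a2, Col5a3 and Col4a1, each lower. Over all genes it called 96 of the 21661 it was given, 76 of them lower. At an unadjusted p under 0.05 there were 15 members against 7.72% of all genes, 14 lower and 1, Col27a1, higher (4.88% and 2.84%). In 13 members every Vehicle library lay below every Chow library, which held for 6.99% of all genes, and in 1 above (6.12%). Fitted values lay below 0 for 22 of 34 members, against 50.9% of all genes. The fibrillar median was -0.66, the basement membrane median -0.40 and that of the others 0.06. Col8a1, a short-chain network collagen, had 4.13, 5.02 and 5.56 CPM in Chow but 2.21, 2.12 and 2.75 CPM in Vehicle (-1.06 ± 0.23, edgeR adjusted p = 0.216). This comparison shares its Vehicle libraries with both Vehicle vs HFD and PCN vs Vehicle, so the values are not independent.

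Over the 4 groups at once, Col5a3 differed (edgeR adjusted p = 0.00621), 1 of 35 members against 24 of 13375 genes (percent called 0.179). The order of its means was HFD 37.3 ± 9.33, Chow 35.7 ± 5.75, Vehicle 15.9 ± 1.54 and PCN 10.5 ± 3.28 CPM (SD, n = 3). HFD and Chow overlapped, as did Vehicle and PCN, while the 2 pairs were apart. Col12a1, Col4a2, Col4a1 and Col5a2 followed, with edgeR adjusted p of 0.0505, 0.0529, 0.0529 and 0.0544. At an unadjusted p under 0.05 there were 18 members, 9 of them among the 10 fibrillar chains, against 15.5% of all genes. Without PCN 27 the call of Col5a3 was lost (adjusted p = 0.0532). Calls over all genes rose where those of collagens did: without PCN 11, 11 members and 186 genes passed, without Chow 17 there were 3 and 76, and without Chow 19 there were 5 and 216. Col6a6 was the flattest abundant member, at 10.1 ± 4.79, 11.0 ± 1.09, 11.2 ± 3.60 and 10.4 ± 3.64 CPM in Chow, HFD, Vehicle and PCN.

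Ratios of counts between 2 chains within a library do not depend on library scaling. The type IV ratio Col4a1/Col4a2 was nearly constant, at 1.55 ± 0.113, 1.42 ± 0.025, 1.43 ± 0.125 and 1.47 ± 0.0982 in Chow, HFD, Vehicle and PCN (SD, n = 3). The type I ratio Col1a1/Col1a2 varied more, at 0.515 ± 0.0922, 0.642 ± 0.0264, 0.463 ± 0.00532 and 0.341 ± 0.0876. Each Vehicle library lay below each HFD library, and each PCN library below each Vehicle library. The log2 difference was -0.47 for Vehicle vs HFD, -0.47 for PCN vs Vehicle and 0.33 for HFD vs Chow, each with a two-sided exact permutation p of 0.1, the smallest that 3 against 3 allows, and 0.24 adjusted over 12 tests. Col6a1/Col6a2 was 0.958 ± 0.0332 in HFD and 1.22 ± 0.0583 in Vehicle, without overlap (log2 difference 0.35, exact permutation p = 0.1, adjusted p = 0.24). In Chow it was 1.13 ± 0.128, again above each HFD library (log2 difference -0.23 for HFD vs Chow, exact permutation p = 0.1, adjusted p = 0.24). Col1a1/Col3a1 overlapped in all 3 comparisons.

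**Figure D5:**
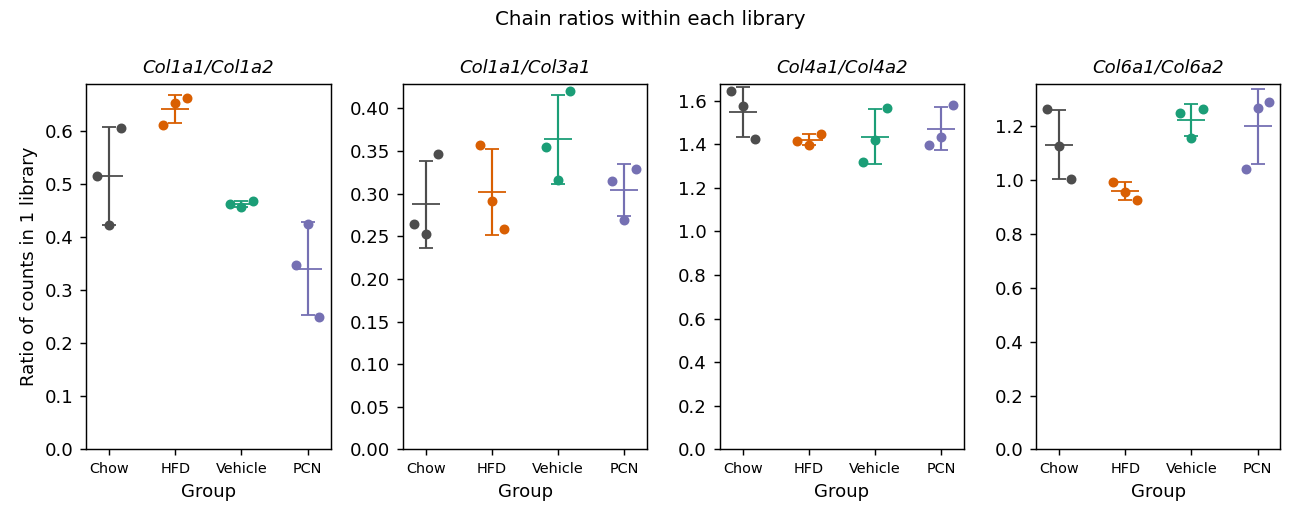
Ratio of the counts of 2 chains within each library, for 4 chain pairs. Points are libraries, horizontal bars are group means and error bars the SD of 3 libraries. Col1a1/Col1a2 steps down from HFD (mean 0.642) to Vehicle (0.463) and PCN (0.341), while Col4a1/Col4a2 keeps to group means of 1.42 to 1.55.

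Levels of collagen chains ran together from library to library. Over the 12 libraries and 9 pairs of chains, Pearson's r of log2 CPM ran from 0.899 (Col1a1 with Col4a1) to 0.986 (Col4a1 with Col4a2), with adjusted permutation p of at most 6.0e-05. Spearman's rho ran from 0.846 to 0.986, with adjusted permutation p of at most 0.00119. The smallest p that the 100000 permutations can give is 1e-05. The permutations moved all 12 libraries freely across the 4 groups, so p does not allow for differences between groups. The same was done after group means were subtracted, where p is approximate and can be too small. Without the 2 libraries farthest from the median of the first chain, r stayed between 0.825 and 0.980. After each group's mean was subtracted, r was 0.954 for Col1a1 with Col1a2 (adjusted permutation p = 3.0e-05) and 0.951 for Col4a1 with Col4a2 (3.0e-05), but 0.657 for Col1a1 with Col4a1 (0.0212). For Col1a1 with Col12a1 it was 0.558 (adjusted permutation p = 0.0549), but 0.956 without PCN 11 and PCN 27. For Col1a1 with Col15a1 it was 0.801 and became 0.498 without those libraries, so that relation within groups rests on them. Both chains of a pair come from the same library and share its depth.

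Several members are neighbours in the genome (GRCm38). Col4a1 and Col4a2 lie head to head on chromosome 8, where their annotated ends overlap by 22 bases. Col4a4 and Col4a3 lie head to head with 71 bases between them, and Col4a6 and Col4a5 with 1308. The sources used here do not give the strand setting of the counting, so reads from the overlap cannot be assigned to one gene. Col3a1 and Col5a2 lie tail to tail, 24.6 kb apart.

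Genes that make, trim, break down or bind collagen were read in 6 lists. No gene passed the edgeR threshold in any comparison in: synthesis and folding (19 genes), processing and cross-linking (11), breakdown and its inhibitors (10), receptors (7), basement membrane partners (11) and fibril-binding proteoglycans (6). At an unadjusted p under 0.05 in Vehicle vs HFD, where 17.8% of all genes lay, there were 2 of 11 in processing, 2 of 11 among basement membrane partners, 1 of 6 among receptors, 2 of 8 in breakdown, 1 of 17 in synthesis and 0 of 6 proteoglycans. In that comparison such shares do not set the lists apart from other genes. Of the basement membrane partners, 5 of 11 lay under 0.05 in Vehicle vs Chow, each lower (4.88% of all genes). In PCN vs Vehicle 2 of 11 did, both lower (1.47% of all genes), and in HFD vs Chow 0 of 11. DESeq2 called Hspg2 in Vehicle vs HFD, and P4hb, Loxl2, Pcolce, Itgb1, Hspg2, Lama2 and Lamc1 over the 4 groups. In Vehicle vs HFD the median log2 fold change was -0.10 for synthesis and folding, where 6 of 17 tested were fitted above 0. P4hb, a subunit of prolyl 4-hydroxylase, was at 115 ± 2.49 CPM in HFD and 146 ± 14.4 in Vehicle (0.35 ± 0.13, edgeR adjusted p = 0.187). Processing and cross-linking had a median of -0.41, with 10 of 11 below 0, among them Pcolce, an enhancer of procollagen trimming (-0.58 ± 0.20, edgeR adjusted p = 0.163). Basement membrane partners had a median of -0.35 with 10 of 11 below 0. Hspg2 (perlecan, a heparan sulfate proteoglycan of that sheet) was at 246 ± 43.3 CPM in HFD and 150 ± 7.13 in Vehicle (-0.72 ± 0.15, edgeR adjusted p = 0.0513).

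In PCN vs Vehicle, Hspg2 was at 104 ± 20.4 CPM in PCN (-0.53 ± 0.19, edgeR adjusted p = 0.998), and the medians were -0.20 for 11 basement membrane partners, -0.36 for 11 processing genes and -0.03 for 17 synthesis genes. Lox, which starts the cross-linking of fibrils, was at 11.9 ± 3.98 CPM in PCN and 18.4 ± 5.06 in Vehicle (-0.62 ± 0.29, edgeR adjusted p = 0.998). P4hb was at 194 ± 29.0 CPM in PCN against 146 ± 14.4 in Vehicle (0.40 ± 0.18, edgeR adjusted p = 0.998), without overlap. In HFD vs Chow the medians of these 3 lists were 0.05, 0.16 and 0.14 for synthesis, processing and basement membrane partners.

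Markers of the cells that make collagen were read in the same libraries. The 8 fibroblast markers summed to between 419 and 646 CPM in Chow, between 336 and 543 in HFD, between 288 and 407 in Vehicle and between 283 and 387 in PCN, and none was at 0 in any library. One of them, Fbn1 (fibrillin-1, a microfibril protein of the matrix), fell in Vehicle vs Chow with a log2 fold change of -1.78 ± 0.18 (edgeR adjusted p = 0.00879) and differed over the 4 groups (0.0484). It was at 137, 132 and 133 CPM in Chow, 66.7, 92.9 and 138 in HFD, 41.4, 46.1 and 29.8 in Vehicle, and 23.5, 50.4 and 20.6 in PCN. Dcn (decorin, made by fibroblasts) overlapped between all groups, at 183 to 346 CPM in Chow and 173 to 223 in PCN. Of the 8 fibroblast markers, fitted values lay below 0 for 6 in HFD vs Chow (49.9% of all genes) and 6 in Vehicle vs HFD (50.1%). They lay below 0 for 7 in PCN vs Vehicle (47.7%) and 8 in Vehicle vs Chow (50.9%). The 6 tendon markers summed to between 64.9 and 94.8 CPM in Chow and between 42.9 and 98.7 in HFD. Their sum was between 42.1 and 52.1 CPM in Vehicle and between 20.6 and 37.4 in PCN. Tnmd, a defining tendon gene, was at 1.22 CPM or less, but Thbs4 was at 14.9 to 65.7 and Fmod at 3.57 to 27.8. Of the tendon markers tested, fitted values lay below 0 for 5 of 6 in HFD vs Chow and 3 of 4 in Vehicle vs HFD. In PCN vs Vehicle 4 of 4 lay below 0, and in Vehicle vs Chow 3 of 4. The 6 adipocyte markers summed to 500.0 CPM in HFD 38 and to 105 and 175 in the other HFD libraries, to between 65.6 and 292 in Chow, 101 and 331 in Vehicle and 106 and 132 in PCN. No marker of either list was at 0 in a library. The 5 endothelial markers summed to between 106 and 134 CPM in Chow and between 82.6 and 117 in HFD. Their sum was between 77.6 and 121 CPM in Vehicle and between 74.0 and 131 in PCN. The 5 smooth muscle and pericyte markers summed to between 323 and 374 CPM in Chow and between 263 and 361 in HFD. In Vehicle that sum was between 251 and 345 CPM and in PCN between 192 and 376. Both sums overlapped between all groups. The part of fibroblast, tendon, fat or vessel content in the collagen values was not tested.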

How the data were processed

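RNA-seq of mouse skeletal muscle was analysed in 12 libraries, 3 in each of 4 groups taken from the labels. The authors deposited raw counts per Ensembl gene in 2 tables of 6 libraries, one of HFD and Chow and one of PCN and Vehicle. Per the submitters' processing notes the tools were HISAT2, HTSeq and DESeq2, and the builds GRCm38 and mm10. The sources used here do not give tool versions, annotation release or strand setting. The authors' own comparison columns were not used. Fits used edgeR 4.0.16 in R 4.3.3 (TMM, default expression filter with minimum count 10, robust quasi-likelihood F test, Benjamini-Hochberg adjustment), each pair of groups on its own 6 libraries. Each SE was obtained from the fold change and its F statistic. Levels are TMM CPM over the 21976 shared genes, and exon lengths are the union of each gene's exons in the GENCODE annotation of GRCm38. DESeq2 1.42.0 was an alternative, as were other scalings and filters, 1 fit of all libraries, and each library left out. Chain ratios and correlations used SciPy 1.17.1 and NumPy 2.4.6. The fits were checked on simulated counts. Replicate libraries differed beyond sampling noise (chi-square per gene 21.6 to 121), so each counted as 1 sample. Genes named are members averaging 10 CPM or more and the 4 lowest p in each comparison, plus up to 4 partners per list. Col27a1, Col6a4, Col2a1, Col10a1, Col9a2, the minor type IV chains, Fbn1, Dcn, Tnmd, Thbs4, Fmod, Mb, Myh1 and the partners that DESeq2 called were named after their values were seen. The members and gene lists were chosen with earlier results of these data known.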

Additional observations from a re-analysis of the deposited data

How the results depend on the processing

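No paired analysis was possible because the groups share no replicate numbers. The cause of each change below was not tested. For HFD vs Chow, DESeq2 called 44 genes in all, and with no expression filter 237 genes and 4 collagens passed. With a library left out, 0 to 219 genes passed, 7 of them or fewer except without Chow 19. For PCN vs Vehicle, 21 genes passed with no filter. For Vehicle vs HFD, the 2 collagens and 193 genes became 12 and 587 with DESeq2, 8 and 571 with no filter, 0 and 44 with total counts, and 0 and 0 with all 12 libraries in 1 fit. With a library left out they ran from 0 to 5 collagens and 0 to 1180 genes. For Vehicle vs Chow, chosen after seeing the data, the 0 collagens and 5 genes became 4 and 96 with DESeq2, 1 and 9 with DESeq2 size factors or the upper quartile, 4 and 75 with no filter, and 2 genes with all 12 libraries in 1 fit. With a library left out they ran from 0 to 1 collagens and 0 to 26 genes. The collagen median was -0.18 with total counts (all genes 0.13) and -0.44 to -0.14 with a library left out. In the 4-group test, 16 collagens and 771 genes passed with DESeq2, 6 and 185 with no filter, and 8 and 13 genes with total counts and the upper quartile. With a library left out they ran from 0 to 11 collagens and 3 to 216 genes.

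Signs turned for members with fitted values near 0. For HFD vs Chow the log2 fold changes with a library left out ran from -0.0077 to 0.42 for Col1a2, -0.079 to 0.43 for Col5a2, -0.14 to 0.22 for Col5a3, -0.23 to 0.25 for Col4a1, -0.092 to 0.37 for Col4a2, -0.11 to 0.67 for Col18a1, -0.14 to 0.36 for Col6a1 and -0.11 to 0.60 for Col6a6. Without Chow 17 and Chow 19 together, Col5a3, Col4a1, Col6a1 and Col6a6 were at -0.15, -0.11, -0.11 and -0.48. For PCN vs Vehicle, Col18a1 ran from -1.01 to 1.11 and Col6a6 from -0.43 to 0.067. For Vehicle vs HFD, Col6a6 ran from -0.13 to 0.26 and Col18a1 from -0.76 to 0.0079. For Vehicle vs Chow, Col18a1 was 0.022 with total counts and ran from -0.26 to 0.020 with a library left out, and Col6a6 from -0.10 to 0.60. The log2 difference of Col1a1/Col3a1 in HFD vs Chow ran from -0.054 to 0.21, that of Col4a1/Col4a2 from -0.022 to 0.10 in PCN vs Vehicle and from -0.055 to 0.070 in Vehicle vs HFD, and that of Col6a1/Col6a2 from -0.089 to 0.066 in PCN vs Vehicle. The PCN to Vehicle ratio of the fibrillar sum ran from 0.412 (without PCN 11) to 0.766. After subtracting group means, r of Col1a1 with Col12a1 was 0.558. Members near 1 CPM rest on few counts per library, which limits their precision.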
